A study of Mus musculus with 72 samples.

Results

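The unfolded protein response and the integrated stress response were followed here through 35 mouse genes in macrophages labelled with a Setd1a or Setd1b deletion and their controls. The members were matched by gene symbol, not by their values, though the set was chosen with earlier results of these data known. They comprise 15 chaperones and folding enzymes of the endoplasmic reticulum (ER), 6 stress sensors and transcription factors, 8 genes of protein translocation and ER-associated degradation, and 6 integrated stress response targets and eIF2 phosphatase subunits. The table of bone marrow-derived macrophages listed 32 of the 35 among 9179 genes, the RAW264.7 table with dexamethasone listed 33 among 8983, and the RAW264.7 table with interferon beta (IFNB1) listed 34 among 18254. Derl3 had a value in no table, Trib3 had none in the marrow-derived cells, and Chac1 had values only in the IFNB1 table. Every listed member passed the filter on low values, and 32 were listed in all tables.

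Proteins that enter the ER fold with the help of chaperones such as Hspa5 (BiP) and of disulfide isomerases of the Pdia family. When unfolded proteins accumulate, the membrane sensors Ern1 (IRE1), Eif2ak3 (PERK) and Atf6 signal through the transcription factors Xbp1, Atf4 and cleaved Atf6, which raise chaperones and the degradation machinery. Eif2ak3 and other kinases also phosphorylate the initiation factor eIF2, which lowers general translation while Atf4 is still made; Atf4 and Ddit3 (CHOP) then switch on amino acid and redox genes, and the phosphatase subunits Ppp1r15a and Ppp1r15b reverse the phosphorylation. In macrophages, bacterial lipopolysaccharide (LPS) and type I interferon act on this network alongside the inflammatory genes.

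The 72 RNA-seq libraries fell into 24 groups of 3, described in the series as biological replicates. In the marrow-derived macrophages (C57BL/6J mice), cells labelled Setd1bKO and control cells were each given dexamethasone (Dex, 1 uM, a glucocorticoid) for 16 h with LPS (100 ng/ml) for 6 h, ethanol with the same LPS, or ethanol alone (vehicle). The control libraries are titled wild type but carry the genotype label Setd1bHet. RAW264.7 cells, a BALB/c macrophage line, of genotype Setd1aDel/+ (called Setd1aDel below) or wild type were treated in the same 3 ways in the 16 h experiment. In the 6 h experiment Dex and LPS were both given for 6 h, with a further group on Dex alone. In the IFNB1 experiment both genotypes received LPS for 6 h with or without IFNB1 (10 ng/ml). LPS lasted 6 h in every experiment, so the names 16 h and 6 h refer to the Dex or ethanol exposure. The labels do not say whether the Setd1aDel cells were 1 clone, which part of either gene was deleted,, or what drove the Setd1b deletion.

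Within a group, libraries correlated at 0.983 or above, and each library's listed TPM summed to 837032 to 912839. Setd1a was lower in Setd1aDel cells, with 16.5, 16.6 and 15.03 TPM in Setd1aDel, against 28.4, 22.9 and 28.9 TPM in wild type under LPS in the 16 h experiment, while in the 6 h experiment under LPS the groups overlapped (10.5, 12.2 and 13.6 TPM in Setd1aDel and 12.02, 25.6 and 15.8 TPM in wild type). Setd1b went against its label: the libraries labelled Setd1bKO had 10.3, 9.65 and 10.2 TPM in vehicle, against 3.80, 5.13 and 4.70 TPM in control, and as the deleted part is not given, gene-level TPM does not check the deletion. The summed macrophage markers reached 17260 to 38780 TPM in the marrow-derived cells, 2682 to 24210 TPM in the 16 h, 6030 to 12570 TPM in the 6 h and 6041 to 10980 TPM in the IFNB1 experiment. Mertk was not listed or at 0 in RAW264.7. T cell, B cell, dendritic cell and fibroblast markers were not listed in the first 3 experiments, whose tables are filtered lists. The neutrophil gene S100a8 ranged from 2.19 to 521 TPM across these 3 experiments. In the IFNB1 experiment the T cell markers Lck and Cd3d summed to 5.4 to 19.5 TPM and the listed neutrophil markers to 1 to 11.5 TPM. Listed B cell, dendritic cell and fibroblast markers there summed to at most 0.5, 0.3 and 0.2 TPM.

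Promoters of some members carry sequences that the transcription factors of this response are known to bind. The stretches shown are from some of these genes to which the results return. In RefSeq windows of 300 bases around the transcription start (GRCm38.p6, both strands searched), 30 of the 35 members had a window. The ER stress element (CCAAT, 9 free bases, CCACG, the known site of Atf6 with NF-Y) was found in 9 of these 30 (30.0%), against 0.137% of all 27025 genes with a window. These 9 were Calr, Canx, Creld2, Derl3, Dnajc3, Hsp90b1, Hspa5, Pdia6 and Syvn1, and Hsp90b1 had 2 copies. The second ER stress element (ATTGG, 1 free base, CCACG) was found in Dnajb11 and Herpud1, or 6.67% of the 30 against 0.0444% of genes. The CARE element (TGATG, 1 free base, AA, a known Atf4 site) was found in Asns, Chac1, Herpud1 and Trib3, or 13.3% of the 30 against 4.51% of genes. The Trib3 match lies past the transcription start and is not shown. TGACG followed directly by TGG, a known Xbp1 site, was in no member's window and in windows of 0.714% of genes. Of the 30 members with a window, 16 had none of these sequences. No motif overlapped another in the stretches below, which run 5′ to 3′ on the gene's own strand with the motif in capitals; a match on the other strand appears as its reverse complement, such as CGTGG to ATTGG for the ER stress element.
Hspa5, chr2:34772015-34772053, plus strand: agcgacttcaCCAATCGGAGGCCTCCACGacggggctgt
Calr, chr8:84847065-84847103, minus strand: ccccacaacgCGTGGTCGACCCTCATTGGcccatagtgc
Hsp90b1, chr10:86705523-86705666, minus strand: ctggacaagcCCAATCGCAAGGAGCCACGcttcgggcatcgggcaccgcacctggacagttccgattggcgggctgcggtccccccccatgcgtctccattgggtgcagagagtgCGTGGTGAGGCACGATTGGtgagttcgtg
Syvn1, chr19:6046522-6046560, plus strand: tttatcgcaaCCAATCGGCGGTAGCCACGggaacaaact
Herpud1, chr8:94386307-94386397, plus strand: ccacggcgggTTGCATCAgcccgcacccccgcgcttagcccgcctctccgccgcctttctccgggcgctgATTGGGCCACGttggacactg
Asns, chr6:7693215-7693242, minus strand: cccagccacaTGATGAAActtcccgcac
Chac1, chr2:119351039-119351066, plus strand: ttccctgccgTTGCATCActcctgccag

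The comparisons below used limma on log2(TPM + 1), and calls rest on an adjusted p under 0.05 (Benjamini-Hochberg, over every gene tested in the comparison). Log2 changes are given with their standard error and understate the change of genes with few TPM. The heat map of all members shows the direction of each change.

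**Figure D1:**
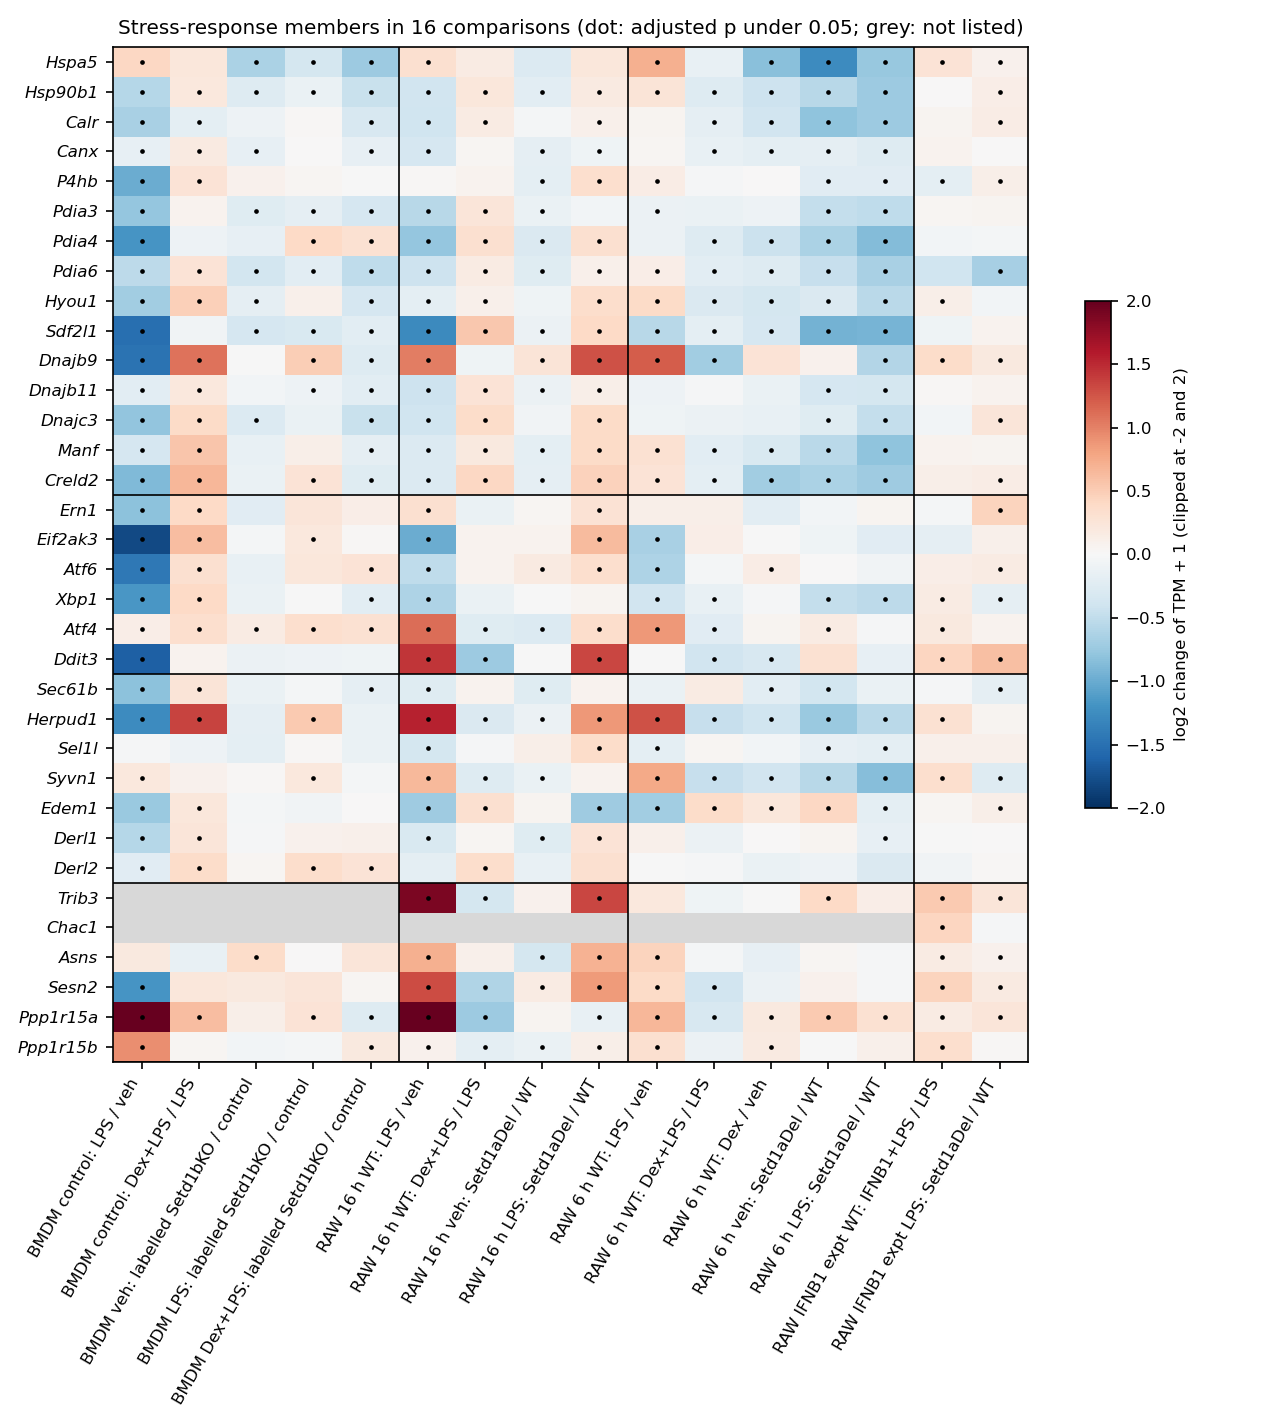
Log2 change of TPM + 1 for the 34 members listed in at least 1 table (down the page, grouped by role) in 16 comparisons (across), clipped at -2 and 2; dots mark an adjusted p under 0.05 and grey cells were not listed. The 15 chaperones are all blue for Setd1aDel over wild type under LPS in the 6 h experiment and mostly red for the same comparison in the 16 h experiment.

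Since TPM are scaled by transcript length, the members' levels can be set side by side. In wild-type RAW264.7 cells in vehicle of the 16 h experiment the most abundant members were Hspa5 (1032 ± 97.8 TPM), Calr (988 ± 43.03 TPM), Pdia3 (764 ± 47.3 TPM), a glycoprotein isomerase, and Hsp90b1 (659 ± 19.2 TPM; mean ± SD, n = 3 here and below), and the first 2 did not differ beyond their spread. In control marrow-derived cells in vehicle the order was Calr (502 ± 9.91 TPM), Hspa5 (341 ± 32.3 TPM), Pdia3 (307 ± 5.36 TPM) and P4hb (256 ± 10.2 TPM), a disulfide isomerase. The sensors were scarce by comparison: Ern1 had 3.19 ± 0.316 TPM and Eif2ak3 7.93 ± 0.433 TPM in the same RAW264.7 cells, and 6.72 ± 0.819 TPM and 8.21 ± 0.361 TPM in the marrow-derived cells.

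Over all 72 libraries some members spanned wide ranges and others narrow ones. Herpud1 ran between 5.68 and 243 TPM, Ppp1r15a between 5.68 and 164 TPM, Ddit3 between 4.92 and 53.4 TPM and Asns between 2.99 and 237 TPM. Hspa5 ran between 204 and 2218 TPM. By contrast Derl1, a channel component of ER-associated degradation, ran between 44.5 and 93.9 TPM, its relative Derl2 between 29.96 and 74.9 TPM and Sel1l between 19.1 and 42.8 TPM. Asns separated the cell types, with 3.09, 3.76 and 3.43 TPM in control marrow-derived cells and 84.3, 76.2 and 71.1 TPM in wild-type RAW264.7 cells in vehicle; these values come from tables deposited separately.

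In control marrow-derived macrophages LPS lowered most of the set, as it did most genes measured, and raised the eIF2 phosphatase subunits. Of the 32 members tested, 5 were called higher and 25 lower, where 20.6% of the 9159 genes tested were called higher and 64.7% lower; the members' median log2 change was -0.72 and that of all genes -0.49. With median-of-ratios scaling, which moves the median of all genes by 0.49, the members split into 11 higher and 18 lower. Under that scaling 3564 of all genes were called higher and 3556 lower. Fewer cells of a type and less RNA per cell cannot be told apart in such bulk libraries.

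Among the phosphatase subunits, the inducible Ppp1r15a (GADD34) had 104, 98.4 and 102 TPM under LPS, against 20.1, 21.6 and 21.4 TPM in vehicle (log2 change 2.22 ± 0.05, adjusted p = 2.22e-16). The constitutive Ppp1r15b (CReP) also rose (log2 change 0.93 ± 0.06, adjusted p = 5.07e-10). Every LPS library stood above every vehicle library for both.

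The sensors and the transcription factor Ddit3 moved the other way, and 5 of the 6 genes in that group fell. Ddit3, which promotes apoptosis under lasting stress, had 15.1, 15.8 and 14.97 TPM under LPS and 52.6, 44.8 and 51.3 TPM in vehicle (log2 change -1.63 ± 0.07, adjusted p = 2.42e-12). Eif2ak3 fell to 1.77, 1.57 and 1.58 TPM under LPS, against 8.07, 8.62 and 7.95 TPM in vehicle (log2 change -1.80 ± 0.08, adjusted p = 5.6e-12). Atf6 and Xbp1 fell by 1.44 and 1.17 on the log2 scale, and Ern1 by 0.81. The groups did not overlap for any of these 5 genes. Atf4 was the exception, with a small increase (log2 change 0.12 ± 0.05, adjusted p = 0.0232).

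Of the 15 chaperones, 14 fell and Hspa5 rose, where 64.7% of all genes were called lower; with median-of-ratios scaling 4 chaperones were higher and 9 lower. The Hspa5 groups were apart, at 419.7, 431 and 522 TPM under LPS and 378, 324 and 321 TPM in vehicle (log2 change 0.42 ± 0.10, adjusted p = 0.00101). Sdf2l1, an Hspa5 cofactor, fell most among the chaperones (-1.51 ± 0.06), followed by Dnajb9 (-1.47 ± 0.09), a co-chaperone that restrains Ern1. Hsp90b1 (GRP94, -0.56 ± 0.04) and Calr (calreticulin, -0.65 ± 0.04) fell less, and the Hsp90b1 change was not called under median-of-ratios scaling. In the degradation group, Herpud1, which recruits the ubiquitin ligase Syvn1 (HRD1), fell to 5.91, 5.68 and 6.96 TPM under LPS, against 16.5, 16.3 and 15.6 TPM in vehicle (log2 change -1.26 ± 0.08, adjusted p = 3.66e-10), and Syvn1 itself rose by 0.21.

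Dex before and during LPS left most members higher than LPS alone in control cells, and all genes measured leaned the same way. Of the 32 members, 21 were called higher and 1 lower, where 44.8% of the 9159 genes tested were called higher and 15.2% lower. The members' median was 0.25 and that of all genes 0.18. With median-of-ratios scaling, which moves the median of all genes by -0.19, 9 members were higher and 7 lower. Under that scaling 1883 of all genes were called higher and 2455 lower. Herpud1 had 15.6, 17.9 and 18.2 TPM under Dex with LPS, against 5.91, 5.68 and 6.96 TPM under LPS (log2 change 1.35 ± 0.08, adjusted p = 1.47e-09). Dnajb9 had 27.1, 28.9 and 27.99 TPM under Dex with LPS, against 12.01, 14.4 and 11.8 TPM under LPS (log2 change 1.08 ± 0.09, adjusted p = 4.83e-08). Herpud1 was then near its vehicle level and Dnajb9 below it, since in vehicle Herpud1 had 16.1 ± 0.479 TPM and Dnajb9 37.1 ± 1.81 TPM (mean ± SD, n = 3). Creld2 (0.66 ± 0.06) and Manf (0.56 ± 0.06), both secreted ER stress proteins, and Eif2ak3 (0.61 ± 0.08) rose as well, while Calr fell (-0.19 ± 0.04). Ppp1r15a, already high under LPS, rose further (log2 change 0.61 ± 0.05, adjusted p = 1.87e-08).

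The libraries labelled Setd1bKO had more chaperones lower than higher and had higher Atf4 than control, with the chaperones mixed under LPS; since Setd1b was not lower in them, these are comparisons of libraries by label. In vehicle, 2 of 32 members were called higher and 8 lower, where 9.89% of the 9159 genes tested were called higher and 15.4% lower; all 8 were chaperones. Under LPS 9 were higher and 6 lower, where 29% of the 9159 genes tested were called higher and 12.4% lower. Of the 15 chaperones 3 were higher and 6 lower under LPS, with a median of 0.006. Median-of-ratios scaling, which moves the median of all genes by -0.10, gave 6 members higher and 10 lower under LPS. Of all genes, 1451 were then called higher and 1825 lower. Under Dex with LPS 5 members were higher and 16 lower, where 23.5% of the 9159 genes tested were called higher and 11.5% lower, and 13 of the 16 were chaperones. Members' medians were -0.13, 0.04 and -0.15 in vehicle, LPS and Dex with LPS, beside -0.02, 0.10 and 0.07 for all genes.

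Hspa5 was lower in the libraries labelled Setd1bKO in each condition and the groups never overlapped. It had 240.4, 214 and 204 TPM in labelled Setd1bKO and 378, 324 and 321 TPM in control vehicle (log2 change -0.63 ± 0.10, adjusted p = 0.000201). Under LPS it had 321, 388 and 369 TPM in labelled Setd1bKO and 419.7, 431 and 522 TPM in control (log2 change -0.34 ± 0.10, adjusted p = 0.0116). Under Dex with LPS it had 309, 363 and 294 TPM in labelled Setd1bKO and 515, 546 and 539 TPM in control (log2 change -0.73 ± 0.10, adjusted p = 3.55e-05). The disulfide isomerases Pdia6 and Pdia3 were also lower in all 3 conditions, as was Hsp90b1 (-0.26, -0.13 and -0.45 in vehicle, LPS and Dex with LPS). Summed over the 15 chaperones, labelled Setd1bKO cells reached 1404 ± 42.9 TPM under Dex with LPS, against 1836 ± 17.2 TPM in control (SD, n = 3).

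Atf4 was higher in labelled Setd1bKO cells in all 3 conditions. It had 153, 143 and 161 TPM in labelled Setd1bKO and 125, 124 and 121 TPM in control under Dex with LPS (log2 change 0.30 ± 0.05, adjusted p = 0.000147). Its log2 change was 0.34 ± 0.05 under LPS and 0.17 ± 0.05 in vehicle. Ddit3 was not called in any condition and its groups overlapped. Pdia4, an isomerase, was higher in labelled Setd1bKO cells under LPS (0.40 ± 0.07) and under Dex with LPS (0.31 ± 0.07), whereas Pdia3 and Pdia6 were lower there.

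**Figure D2:**
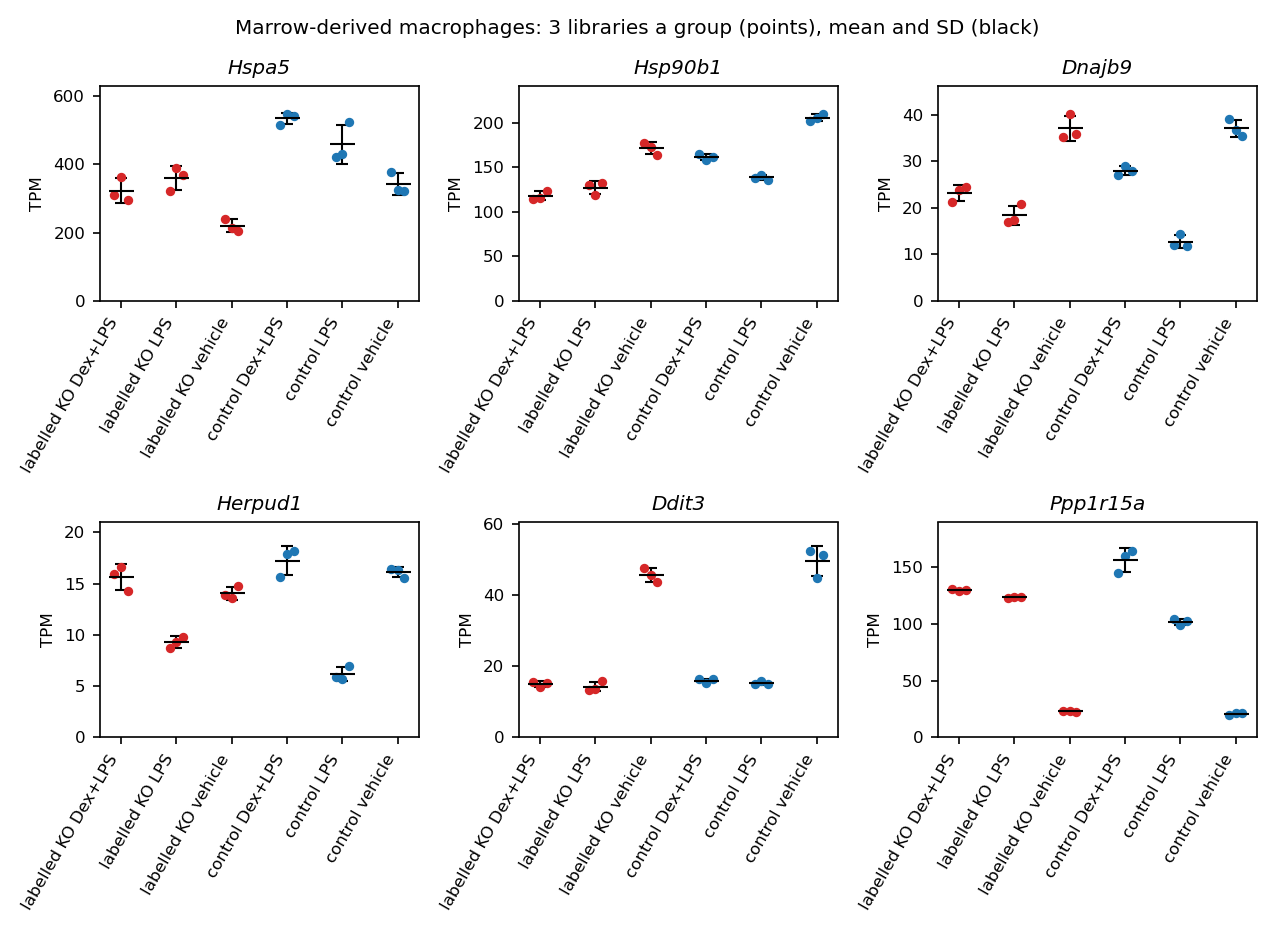
TPM (vertical axes, from 0) of 6 members in the 6 groups of marrow-derived macrophages, with libraries labelled Setd1bKO in red and control in blue; points are libraries and black bars the mean and SD (n = 3). Hspa5 is lower in each labelled Setd1bKO group than in its control, Ppp1r15a is high in all LPS groups, and Ddit3 is between 43.8 and 52.6 TPM in vehicle and between 13.4 and 16.3 TPM in the other groups.

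Tested as a difference of responses, 7 of 32 members were called, each with a higher LPS response in labelled Setd1bKO than in control, where 16.4% of the 9159 genes tested were called higher and 5.43% lower. Herpud1 differed most (log2 change 0.71 ± 0.11, adjusted p = 0.000325), with 8.70, 9.34 and 9.82 TPM under LPS in labelled Setd1bKO and 5.91, 5.68 and 6.96 TPM in control. Pdia4 (0.56 ± 0.10) and Dnajb9 (0.49 ± 0.12) followed, and the count was 4 without control LPS replicate 1 and 3 with median-of-ratios scaling. The members' median was 0.15 and that of all genes 0.11, and the 7 called lay near the share of all genes called higher. With median-of-ratios scaling 783 of all genes were called higher. The response to Dex under LPS differed for 9 of 32 members, each lower in labelled Setd1bKO, where 2.69% of the 9159 genes tested were called higher and 3.53% lower. With median-of-ratios scaling 1 member was higher and 9 lower, beside 324 of all genes higher and 282 lower. Dnajb9 (log2 change -0.76 ± 0.12, adjusted p = 0.00124) and Herpud1 (log2 change -0.65 ± 0.11, adjusted p = 0.002) led, and 7 of the 9 were chaperones. Ppp1r15a had 131, 129 and 129 TPM under Dex with LPS in labelled Setd1bKO, against 144, 159.7 and 164 TPM in control, and its Dex response differed by -0.54 ± 0.06.

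Wild-type RAW264.7 cells in the 16 h experiment answered LPS with a rise of the integrated stress response genes, while the chaperones moved with the bulk of all genes. Of 33 members, 12 were called higher and 19 lower, where 17.4% of the 8964 genes tested were called higher and 66.1% lower; the members' median was -0.28 and that of all genes -0.38. Median-of-ratios scaling moves the median of all genes by 0.38 and gives 17 higher and 7 lower, beside 3478 of all genes higher and 3422 lower. All 5 listed integrated stress response targets and phosphatase subunits rose under either scaling. Trib3, a pseudokinase induced by Ddit3 and Atf4, had 10.7, 9.59 and 10.7 TPM under LPS and 2.05, 2.09 and 2.04 TPM in vehicle (log2 change 1.89 ± 0.07, adjusted p = 5.13e-13). Ppp1r15a had 33.4, 30.9 and 29.3 TPM under LPS and 5.68, 6.18 and 5.71 TPM in vehicle (log2 change 2.23 ± 0.06, adjusted p = 5.39e-15). The groups were apart for both genes, as for Sesn2 (1.31 ± 0.06), a stress-induced inhibitor of mTOR signalling, and Asns (0.71 ± 0.05), asparagine synthetase.

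Ddit3 rose here, with 16.2, 18.3 and 17.5 TPM under LPS and 5.32, 5.64 and 6.42 TPM in vehicle (log2 change 1.43 ± 0.09, adjusted p = 4.94e-10), together with Atf4 (1.12 ± 0.05) and Herpud1 (1.53 ± 0.04). Eif2ak3 (-0.99 ± 0.07), Xbp1 (-0.62 ± 0.06) and Atf6 (-0.51 ± 0.04) fell. Among the 15 chaperones 2 rose and 12 fell, or 7 rose and 3 fell with median-of-ratios scaling, and their median of -0.38 was that of all genes. Sdf2l1 fell most (log2 change -1.27 ± 0.04, adjusted p = 3.58e-14), and Pdia4 (-0.78 ± 0.06) and Pdia3 (-0.55 ± 0.05) also fell. Hsp90b1 and Calr fell by 0.38 and 0.41, but their changes were 0.03 and 0.007 and not called with median-of-ratios scaling.

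Dex with LPS over LPS in these wild-type cells gave 13 members higher and 8 lower of 33, where 35.2% of the 8964 genes tested were called higher and 12.3% lower. The members' median was 0.07 and that of all genes 0.09. Median-of-ratios scaling, which moves the median of all genes by -0.10, gave 8 members higher and 13 lower. Of all genes, 1774 were then called higher and 2087 lower. Of the 5 listed integrated stress response targets and phosphatase subunits, 4 were called lower. Asns was not called, and its Dex with LPS libraries all stood above its LPS libraries. Ddit3 had 11.02, 10.7 and 8.65 TPM under Dex with LPS and 16.2, 18.3 and 17.5 TPM under LPS (log2 change -0.73 ± 0.09, adjusted p = 1e-05). Ppp1r15a (-0.72 ± 0.06), Sesn2 (-0.59 ± 0.06) and Trib3 (-0.36 ± 0.07) fell with it. Chaperones were higher in 11 of 15 (7 higher and 2 lower when scaled), led by Sdf2l1 (0.54 ± 0.04) and Creld2 (0.41 ± 0.05).

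In Setd1aDel cells of the 16 h experiment the set was close to or slightly below wild type in vehicle and above it under LPS. In vehicle 3 of 33 members were called higher and 17 lower, where 15.3% of the 8964 genes tested were called higher and 32.9% lower. The members' median was -0.12 and that of all genes -0.08. With median-of-ratios scaling 5 members were higher and 8 lower, beside 1973 of all genes higher and 1884 lower. The largest fall in vehicle was that of Asns (log2 change -0.35 ± 0.05, adjusted p = 6.89e-05), beside Atf4 (-0.28 ± 0.05) and Pdia4 (-0.28 ± 0.06). Under LPS 24 of 33 were called higher and 3 lower, where 17.5% of the 8964 genes tested were called higher and 42.4% lower; the members' median was 0.32 and that of all genes -0.11. The calls comprised 12 of 15 chaperones, 5 of 6 sensors and factors, 3 of 7 translocation and degradation genes and 4 of 5 integrated stress response genes called higher.

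Ddit3 showed the pattern most plainly. Setd1aDel cells had 46.6, 44.5 and 44.6 TPM under LPS, against 16.2, 18.3 and 17.5 TPM in wild type (log2 change 1.34 ± 0.09, adjusted p = 5.68e-09). In vehicle Setd1aDel cells had 4.92, 5.99 and 6.50 TPM and wild type 5.32, 5.64 and 6.42 TPM, and these groups overlapped. Trib3 had 25.05, 28.9 and 29.4 TPM in Setd1aDel and 10.7, 9.59 and 10.7 TPM in wild type under LPS (log2 change 1.34 ± 0.07, adjusted p = 1.91e-10), and its vehicle groups also overlapped. Asns reversed its order: it had 209, 206 and 204 TPM in Setd1aDel and 128, 122 and 129 TPM in wild type under LPS (log2 change 0.70 ± 0.05, adjusted p = 2.02e-08), while in vehicle it was lower in Setd1aDel at 63.5, 59.2 and 58.00 TPM, against 84.3, 76.2 and 71.1 TPM in wild type. Sesn2 rose with them (0.85 ± 0.06).

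Dnajb9 had 65.2, 54.7 and 55.5 TPM in Setd1aDel and 23.5, 24.2 and 22.9 TPM in wild type under LPS (log2 change 1.27 ± 0.07, adjusted p = 2.51e-10). Herpud1 had 239, 242 and 243 TPM in Setd1aDel and 133, 131 and 132 TPM in wild type (log2 change 0.87 ± 0.04, adjusted p = 4.05e-11). Eif2ak3 rose by 0.63, Atf4 by 0.35 and Atf6 by 0.34, and every Setd1aDel library was above every wild-type library for these genes. The abundant chaperones moved less: Hsp90b1 rose by 0.18 and Calr by 0.11, and Hspa5, with overlapping groups, was not called (log2 change 0.23 ± 0.12, adjusted p = 0.11). Summed over 15 chaperones, Setd1aDel cells reached 5756 ± 57.04 TPM and wild type 5028 ± 132 TPM under LPS (SD, n = 3).

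A few members fell in the same comparison. Edem1, a lectin that sends misfolded glycoproteins to degradation, had 78.8, 75.6 and 74.1 TPM in Setd1aDel and 126, 126 and 123 TPM in wild type under LPS (log2 change -0.71 ± 0.03, adjusted p = 9.81e-12). Ppp1r15a (-0.14 ± 0.06, overlapping groups) and Canx (-0.09 ± 0.03) were barely lower, and with median-of-ratios scaling neither was called and Canx turned to 0.02. Setd1a itself, given above, and interferon-induced Ifit1 (-1.29 ± 0.08) were lower in the same libraries, and Il6 was higher (1.48 ± 0.07); their part in the member changes was not tested.

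**Figure D3:**
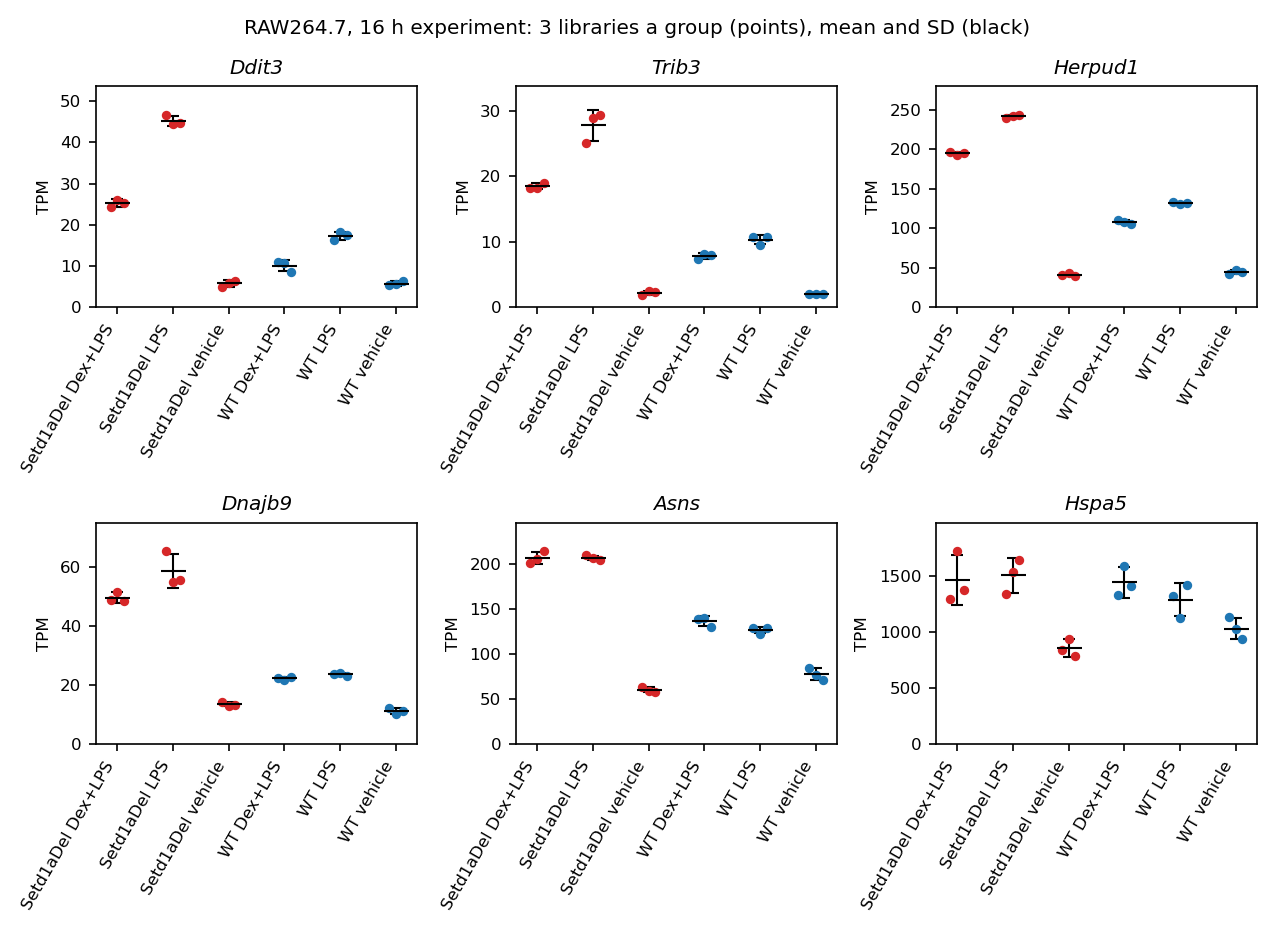
TPM (vertical axes, from 0) of 6 members in the 6 RAW264.7 groups of the 16 h experiment, Setd1aDel in red and wild type in blue; points are libraries, black bars the mean and SD (n = 3). Ddit3, Trib3, Herpud1, Dnajb9 and Asns are higher in Setd1aDel than in wild type under LPS and under Dex with LPS but not in vehicle, except for Dnajb9, and the Hspa5 groups overlap under LPS.

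The LPS response itself was larger in Setd1aDel than in wild type for 26 of 33 members and smaller for 1, where 13.1% of the 8964 genes tested were called higher and 20.3% lower (members' median 0.46, all genes -0.03). Ddit3 (log2 change 1.34 ± 0.13, adjusted p = 7.23e-07), Trib3 (log2 change 1.26 ± 0.10, adjusted p = 6.43e-08) and Asns (log2 change 1.05 ± 0.08, adjusted p = 2.51e-08) differed most, and Edem1 was the member with the smaller response (log2 change -0.76 ± 0.04, adjusted p = 9.42e-10). Dex over LPS changed 1 member more positively and 8 more negatively in Setd1aDel, where 2.88% of the 8964 genes tested were called higher and 7.68% lower; Sdf2l1 (-0.32 ± 0.05) and Hsp90b1 (-0.27 ± 0.04) led the lower group and Ppp1r15a was the higher one (0.33 ± 0.08).

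Dex with LPS left the Setd1aDel excess of stress genes in place in the 16 h experiment, which is given here as values without a test. Ddit3 had 24.2, 26.1 and 25.2 TPM in Setd1aDel and 11.02, 10.7 and 8.65 TPM in wild type under Dex with LPS. Trib3 had 18.2, 18.2 and 18.99 TPM in Setd1aDel and 7.33, 8.18 and 8.06 TPM in wild type, and Asns 200.3, 206 and 214 TPM in Setd1aDel and 138, 140 and 129.6 TPM in wild type. These groups were apart, as were those of Dnajb9 (48.7, 51.6 and 48.4 TPM in Setd1aDel and 22.2, 21.8 and 22.5 TPM in wild type) and Herpud1 (196, 192 and 195 TPM in Setd1aDel and 109.9, 108 and 105 TPM in wild type). The abundant chaperones did not share it. Hsp90b1 had 548, 553 and 557 TPM in Setd1aDel and 589, 605 and 574 TPM in wild type, the lower values being those of Setd1aDel, and the groups of Calr and Hspa5 overlapped.

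The 6 h experiment gave a different picture under the same LPS exposure. LPS in wild type raised 15 of 33 members and lowered 7, where 19.5% of the 8981 genes tested were called higher and 52.3% lower; the members' median was 0.12 and that of all genes -0.24. Median-of-ratios scaling moves the median of all genes by 0.24 and gives 24 higher and 5 lower, beside 3072 of all genes higher and 3038 lower. Herpud1 had 78.9, 77.5 and 75.4 TPM under LPS and 33.4, 30.7 and 30.5 TPM in vehicle (log2 change 1.27 ± 0.10, adjusted p = 3.35e-10). Dnajb9 had 55.98, 42.9 and 48.6 TPM under LPS and 19.7, 21.3 and 20.8 TPM in vehicle (log2 change 1.21 ± 0.11, adjusted p = 3.89e-09). Atf4 (0.86 ± 0.05), Syvn1 (0.76 ± 0.08) and Hspa5 (0.72 ± 0.23) also rose, whereas Edem1 (-0.70 ± 0.04), Eif2ak3 (-0.65 ± 0.09) and Atf6 (-0.62 ± 0.04) fell. Sel1l, the partner of Syvn1, fell by 0.19 but stood at 0.06 and was not called with median-of-ratios scaling. Ddit3 had 23.4, 23.95 and 23.8 TPM under LPS and 25.02, 22.9 and 24.04 TPM in vehicle, overlapping groups with no call (log2 change -0.01 ± 0.11, adjusted p = 0.914).

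Dex lowered members with and without LPS in wild-type cells of the 6 h experiment. With LPS, 1 of 33 was called higher and 17 lower, where 14.7% of the 8981 genes tested were called higher and 10.6% lower (members' median -0.15, all genes 0.04). Dnajb9 had 31.6, 28.01 and 30.3 TPM under Dex with LPS and 55.98, 42.9 and 48.6 TPM under LPS (log2 change -0.69 ± 0.11, adjusted p = 6.35e-05). Herpud1 (-0.47 ± 0.10), Syvn1 (-0.46 ± 0.08) and Ddit3 (-0.39 ± 0.11) fell too, and Edem1 was the member that rose (0.37 ± 0.04). Without LPS, 4 were higher and 14 lower, where 12% of the 8981 genes tested were called higher and 24.8% lower (members' median -0.15, all genes -0.05). Creld2 had 37.6, 37.98 and 35.7 TPM on Dex and 59.9, 57.6 and 64.5 TPM in vehicle (log2 change -0.69 ± 0.05, adjusted p = 3.61e-09). Hspa5 fell as well (log2 change -0.83 ± 0.23, adjusted p = 0.00813), though its Dex libraries were spread at 898, 842 and 476 TPM.

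Setd1aDel cells of the 6 h experiment had lower chaperones than wild type in both vehicle and LPS. In vehicle 4 of 33 members were called higher and 19 lower, where 6.58% of the 8981 genes tested were called higher and 15.6% lower; the members' median was -0.23 and that of all genes -0.06. Under LPS 1 was higher and 21 lower, where 9.19% of the 8981 genes tested were called higher and 12.3% lower; the members' median was -0.28 and that of all genes -0.02. All 15 chaperones were called lower under LPS, and 14 of 15 in vehicle. Summed over the 15, Setd1aDel cells reached 3222 ± 296 TPM under LPS, against 5004 ± 73.95 TPM in wild type, and 2484 ± 182 TPM in vehicle, against 3993 ± 121 TPM in wild type (SD, n = 3).

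Hspa5 had 1584, 1194 and 996 TPM in Setd1aDel and 1989, 2218 and 2058 TPM in wild type under LPS (log2 change -0.76 ± 0.23, adjusted p = 0.0241). In vehicle it had 519.6, 399 and 715 TPM in Setd1aDel and 1398, 1154 and 1264 TPM in wild type (log2 change -1.26 ± 0.23, adjusted p = 0.000662). The Setd1aDel libraries varied widely but stayed below wild type in both conditions. Hsp90b1, with both of its ER stress elements shown above, had 215, 217 and 225 TPM in Setd1aDel and 366, 348 and 371 TPM in wild type under LPS (log2 change -0.72 ± 0.05, adjusted p = 4.83e-09). Calr had 350.2, 339 and 363 TPM in Setd1aDel and 584, 563 and 595 TPM in wild type (log2 change -0.73 ± 0.05, adjusted p = 2.25e-09). These groups were well apart, as they were for Sdf2l1 (-0.93 ± 0.07), Pdia4 (-0.86 ± 0.06) and Manf (-0.80 ± 0.05).

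Outside the chaperones, Syvn1 had 19.8, 17.7 and 20.3 TPM in Setd1aDel and 35.7, 34.2 and 36.2 TPM in wild type under LPS (log2 change -0.84 ± 0.08, adjusted p = 3.75e-07). Xbp1, whose spliced product drives these genes, had 105, 106 and 102 TPM in Setd1aDel and 155, 150.2 and 145 TPM in wild type (log2 change -0.52 ± 0.04, adjusted p = 1.64e-08); gene-level TPM does not separate its spliced form. Herpud1 fell in vehicle (log2 change -0.74 ± 0.10, adjusted p = 1.27e-05), with 18.9, 18.1 and 18.3 TPM in Setd1aDel and 33.4, 30.7 and 30.5 TPM in wild type. Genes of the Atf4 arm did not fall with them. Atf4 (-0.02 ± 0.05), Asns (-0.02 ± 0.07), Trib3 (0.13 ± 0.10) and Ddit3 (-0.16 ± 0.11) were not called under LPS, and in vehicle Trib3 (0.41 ± 0.10) and Atf4 (0.17 ± 0.05, overlapping groups) were higher. Ppp1r15a was higher in Setd1aDel in vehicle (log2 change 0.52 ± 0.07, adjusted p = 2.7e-05) and under LPS (log2 change 0.30 ± 0.07, adjusted p = 0.00429). Edem1 rose in vehicle (log2 change 0.41 ± 0.04, adjusted p = 1.9e-07).

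With Dex, given as values without a test, the chaperones of the 6 h experiment kept the same order. Under Dex with LPS Hsp90b1 had 264, 259.7 and 254 TPM in Setd1aDel and 289, 293 and 322 TPM in wild type, and Calr 410.4, 409.6 and 415 TPM in Setd1aDel and 505, 499.7 and 534 TPM in wild type. On Dex alone Hsp90b1 had 184, 165 and 184 TPM in Setd1aDel and 224, 214 and 245 TPM in wild type. The groups of Sdf2l1, Pdia4, Manf, Syvn1 and Xbp1 were likewise apart in both Dex conditions, with Setd1aDel lower, while those of Hspa5 overlapped on Dex alone. Ddit3 had 28.5, 29.8 and 21.1 TPM in Setd1aDel and 18.8, 20.9 and 17.7 TPM in wild type on Dex alone, with Setd1aDel higher, and its groups overlapped under Dex with LPS.

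**Figure D4:**
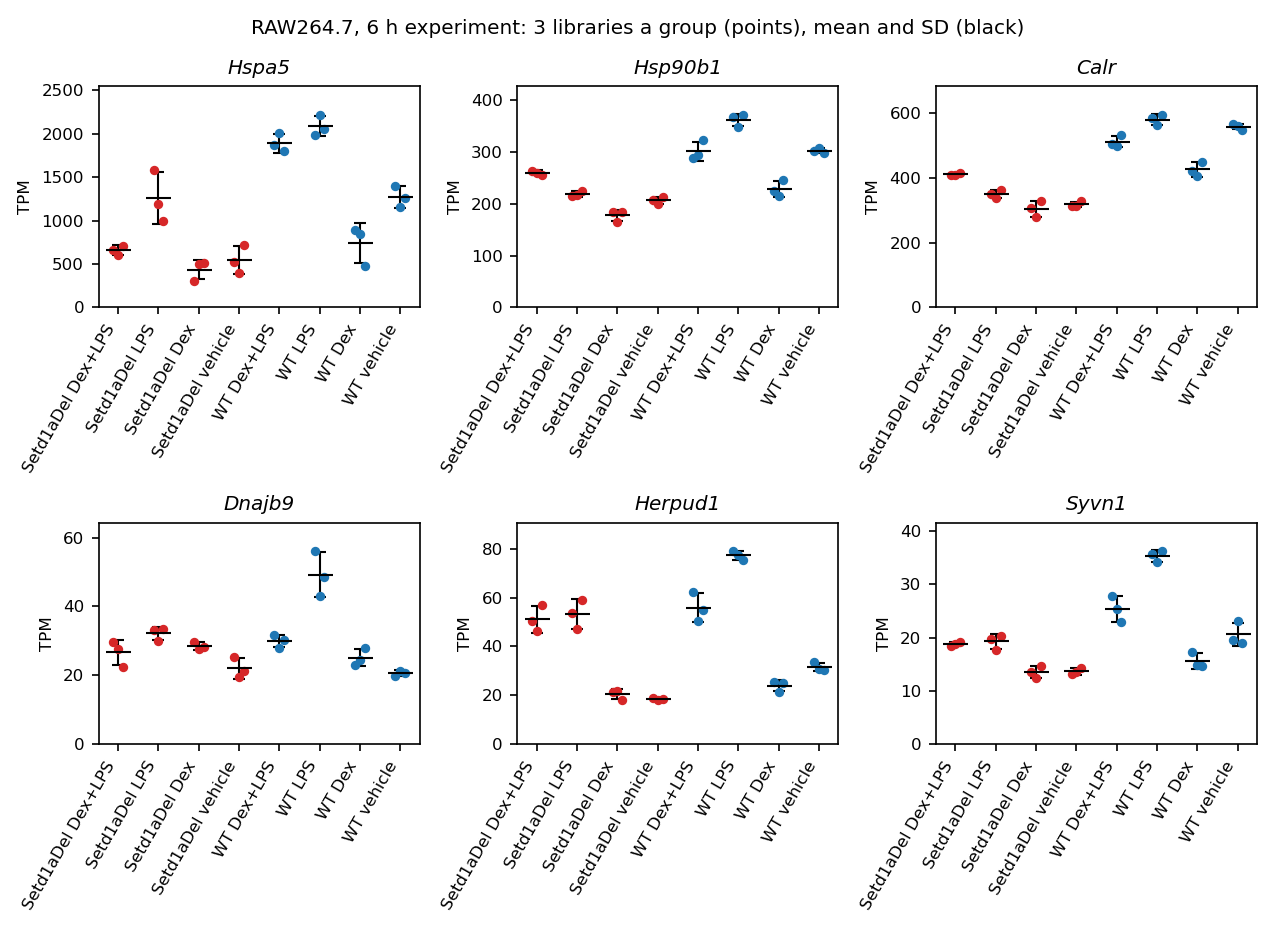
TPM (vertical axes, from 0) of 6 members in the 8 RAW264.7 groups of the 6 h experiment, Setd1aDel in red and wild type in blue; points are libraries, black bars the mean and SD (n = 3). Hsp90b1, Calr and Syvn1 are lower in every Setd1aDel group than in the wild-type group of the same treatment, and the Setd1aDel LPS libraries of Hspa5 range from 996 to 1584 TPM.

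The members with an ER stress element in the promoter window were all called lower in Setd1aDel of the 6 h experiment: 8 of 8 tested in vehicle (median -0.55) and 8 of 8 under LPS (median -0.71), where 15.6% and 12.3% of all genes were called lower (medians -0.06 and -0.02). Of the 16 matched members without any of the motifs, 7 were lower and 3 higher in vehicle (median -0.09), and 8 were lower and 1 higher under LPS (median -0.21). Most carriers of the element are chaperones, and chaperones fell with or without it. All 15 were called lower under LPS and 14 of 15 in vehicle, and Sdf2l1 and Pdia4, without any of the motifs, were among those lower under LPS. The element and the chaperone role therefore cannot be told apart here. The 3 tested CARE carriers had a median of -0.02 under LPS, and 1 was called lower. That was Herpud1, which also carries the second ER stress element. In the 16 h experiment under LPS the CARE carriers were called higher in 3 of 3 (median 0.87) and the ER stress element carriers in 5 of 8, with 1 lower (median 0.14), where 17.5% of all genes were called higher and 42.4% lower (median -0.11).

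The LPS response differed between Setd1aDel and wild type in the 6 h experiment for 4 members, each lower, where 2.97% of the 8981 genes tested were called higher and 2.63% lower. These members were Dnajb9 (-0.68 ± 0.15), Edem1 (-0.60 ± 0.05), Hyou1 (-0.24 ± 0.05), an Hspa5 exchange factor, and Pdia6 (-0.20 ± 0.06). With median-of-ratios scaling 8 members were lower, beside 190 of all genes higher and 327 lower. The response to Dex under LPS was higher in Setd1aDel for 13 members and lower for 1, where 3.25% of the 8981 genes tested were called higher and 2.04% lower (members' median 0.27, all genes 0.02), and 11 of the 13 were chaperones. Pdia4 had 45.02, 45.2 and 43.99 TPM under Dex with LPS and 34.1, 30.3 and 32.8 TPM under LPS in Setd1aDel, while in wild type it had 49.1, 48.1 and 51.9 TPM under Dex with LPS and 59.8, 58.2 and 61.1 TPM under LPS (difference of log2 changes 0.71 ± 0.08, adjusted p = 6.82e-05). Manf (0.55 ± 0.08) and Hsp90b1 (0.51 ± 0.07) behaved alike, and Sec61b, a translocon subunit, was the lower one (-0.47 ± 0.10).

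Both experiments share a deposited table, so the Setd1aDel effect under LPS was also compared between them in 1 fit of 42 libraries, a comparison added after the values were seen. It was more positive in the 16 h than in the 6 h experiment for 28 of 33 members and more negative for 2, where 13.6% of the 8981 genes tested were called higher and 27.8% lower; the members' median was 0.76 and that of all genes -0.10. All 15 chaperones were among the 28. The difference was 1.87 ± 0.13 for Dnajb9, 1.497 for Ddit3, 1.33 ± 0.08 for Sdf2l1 and 0.98 ± 0.28 for Hspa5, and it was negative for Edem1 (-0.52 ± 0.05) and Ppp1r15a (-0.44 ± 0.09). The experiment, the length of the ethanol exposure and any batch cannot be told apart.

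Baseline levels differed between these experiments as well. Wild-type vehicle cells had 5.32, 5.64 and 6.42 TPM of Ddit3 in the 16 h and 25.02, 22.9 and 24.04 TPM in the 6 h experiment. For Trib3 they had 2.05, 2.09 and 2.04 TPM in the 16 h and 10.1, 8.15 and 9.16 TPM in the 6 h experiment. The wild-type LPS response was higher in the 16 h experiment for 6 of 33 members and lower for 17, where 9.02% of the 8981 genes tested were called higher and 28.7% lower. Trib3 (1.68 ± 0.13), Ppp1r15a (1.57 ± 0.09) and Ddit3 (1.45 ± 0.15) led the higher ones, and 12 of the 17 lower ones were chaperones. Median-of-ratios scaling, which moves the median of all genes by 0.13, gave 9 members higher and 12 lower. Of all genes, 1462 were then called higher and 1425 lower.

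**Figure D5:**
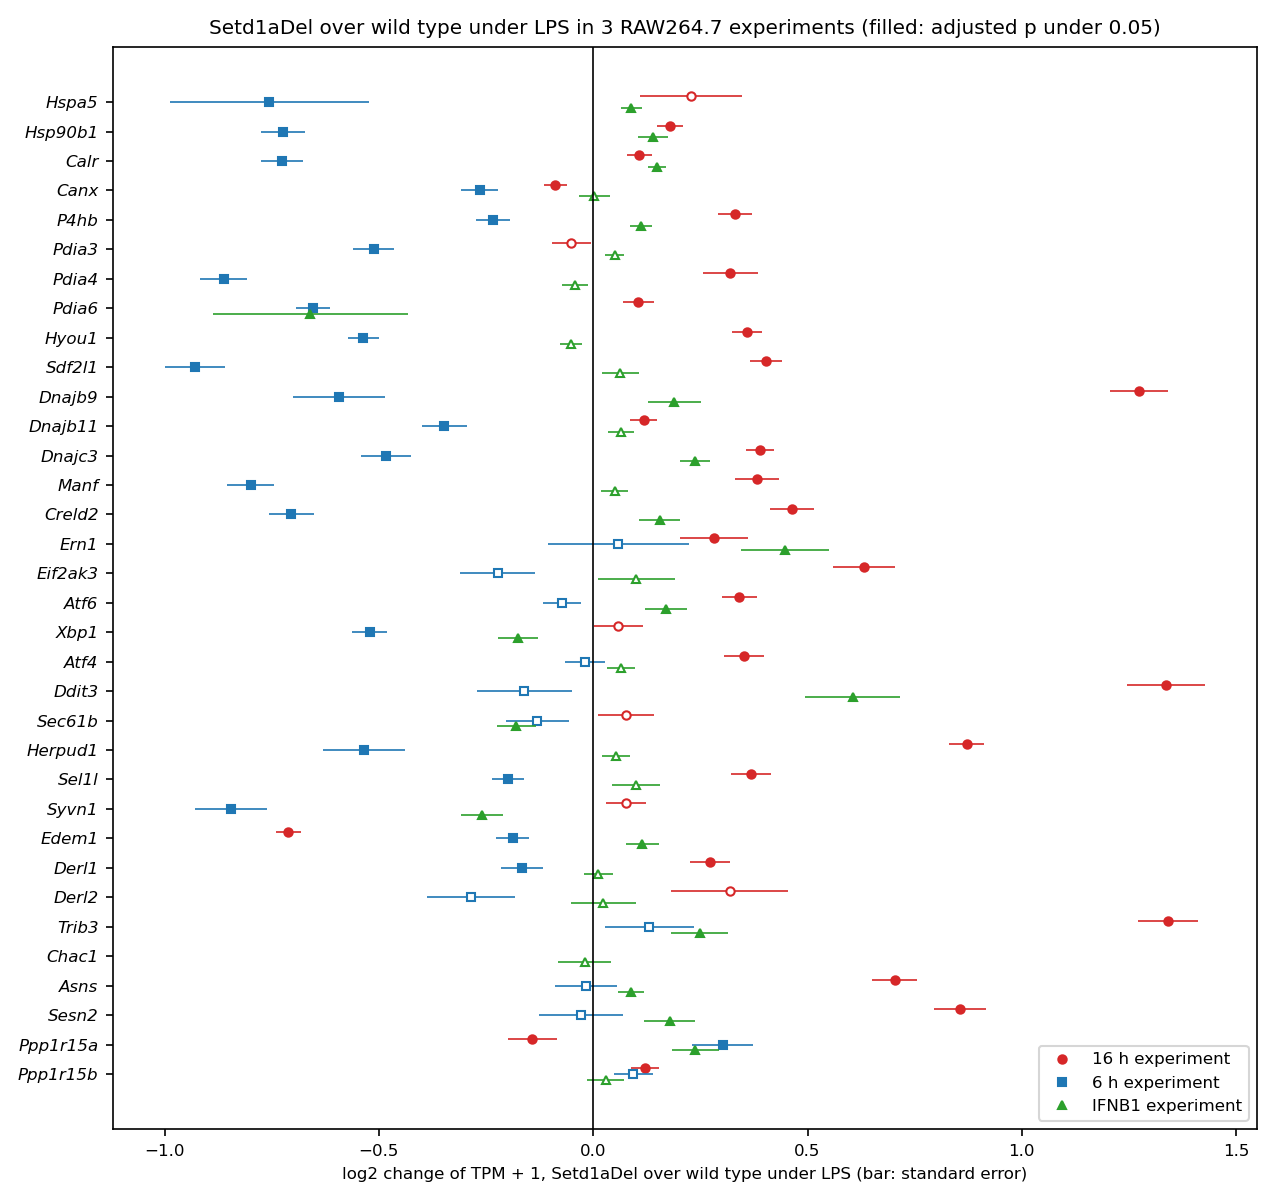
Log2 change of TPM + 1 (horizontal axis) for Setd1aDel over wild type under LPS, 1 line per member, in the 16 h (red circles), 6 h (blue squares) and IFNB1 (green triangles) experiments; bars are standard errors and filled symbols have an adjusted p under 0.05. The 15 chaperones at the top lie left of 0 in the 6 h experiment, while Ddit3 and Trib3 reach 1.34 in the 16 h experiment.

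In the IFNB1 experiment, interferon added to LPS raised the integrated stress response genes of wild-type cells. Of 34 members, 14 were called higher and 1 lower, where 9.5% of the 10923 genes tested were called higher and 23.5% lower; the members' median was 0.08 and that of all genes -0.09. With median-of-ratios scaling 24 were higher and 1 lower, beside 1601 of all genes higher and 1353 lower. All 6 integrated stress response targets and phosphatase subunits rose. Trib3 had 19.7, 22.1 and 18.7 TPM with IFNB1 and 14.3, 13.0 and 14.0 TPM on LPS alone (log2 change 0.52 ± 0.07, adjusted p = 0.000168). Chac1, which degrades glutathione and carries the CARE element shown above, had 25.4, 23.4 and 22.3 TPM with IFNB1 and 17.7, 17.5 and 16.5 TPM on LPS alone (log2 change 0.44 ± 0.06, adjusted p = 0.000314). The groups were apart for both. Sesn2 (0.45 ± 0.06), Ddit3 (0.43 ± 0.11), Ppp1r15b (0.34 ± 0.04) and Hspa5 (0.28 ± 0.02) also rose, and the isomerase P4hb fell (-0.20 ± 0.03).

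Setd1aDel cells on LPS alone in the IFNB1 experiment had 15 of 34 members called higher and 4 lower than wild type, where 17.7% of the 10923 genes tested were called higher and 24.9% lower (members' median 0.08, all genes -0.05). With median-of-ratios scaling 20 members were higher and 2 lower, beside 2294 of all genes higher and 2251 lower. Ddit3 had 23.7, 22.0 and 24.9 TPM in Setd1aDel and 18.3, 12.7 and 14.8 TPM in wild type (log2 change 0.60 ± 0.11, adjusted p = 0.00105). Ern1 (0.45 ± 0.10), Trib3 (0.25 ± 0.07) and Ppp1r15a (0.24 ± 0.06) were higher with it. The chaperone changes were small, with Calr at 0.15 ± 0.02, Hsp90b1 at 0.14 ± 0.04 and Hspa5 at 0.09 ± 0.02. Syvn1 (-0.26 ± 0.05) and Xbp1 (-0.18 ± 0.05) were lower. Pdia6 was also called lower, but its groups overlapped (32.9, 17.7 and 28.2 TPM in Setd1aDel and 55.5, 37.2 and 32.8 TPM in wild type), it was not called with median-of-ratios scaling, and in the other RAW264.7 table its LPS libraries stood at 129 TPM or more. Without Setd1aDel LPS replicate 2, 12 members were called in all. Ifit1 (-1.08 ± 0.06) and Il1b (-0.97 ± 0.06) were lower and Il6 (1.36 ± 0.11) higher in these Setd1aDel libraries; their part in the member changes was not tested.

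The response to IFNB1 differed for 4 members, each with a larger response in Setd1aDel than in wild type, where 3.31% of the 10923 genes tested were called higher and 8.01% lower (members' median 0.01, all genes -0.08). Ddit3 had 53.4, 45.8 and 44.1 TPM with IFNB1 and 23.7, 22.0 and 24.9 TPM on LPS alone in Setd1aDel, while wild type had 20.6, 20.8 and 20.8 TPM with IFNB1 and 18.3, 12.7 and 14.8 TPM on LPS alone. The difference of its log2 changes was 0.56 ± 0.16 (adjusted p = 0.0443), and Chac1 (0.45 ± 0.09), Trib3 (0.35 ± 0.09) and Hspa5 (0.12 ± 0.03) were the others. The count was 7 with median-of-ratios scaling, beside 621 of all genes higher and 329 lower, and 1 without the filter on low values. It also rested on single libraries: it was 1 or 2 without any of the 12 libraries except wild-type LPS replicate 2, where it changed by less than 1.5 times, and Setd1aDel IFNB1 with LPS replicate 3, where it was 7.

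Related genes outside the set were read from 3 further lists, 40 other Atf4-linked genes, 57 other ER folding and transport genes and 14 eIF2 kinases and translation factors. These lists were chosen with earlier results of these data known. Of the Atf4-linked genes, 28 of 36 tested were called higher and 2 lower in Setd1aDel under LPS in the 16 h experiment (median 0.37, all genes -0.11), where 17.5% of all genes were called higher and 42.4% lower. In the 6 h experiment 5 were higher and 4 lower (median -0.01, all genes -0.02), where 9.19% of all genes were called higher and 12.3% lower. In the 16 h experiment the highest were Cth (1.61 ± 0.07), of cysteine synthesis, the secreted Stc2 (1.55 ± 0.05), the cystine carrier Slc7a11 (1.05 ± 0.05) and Atf5 (1.05 ± 0.05), a stress transcription factor; Jdp2 fell (-1.35 ± 0.03). Of the other ER genes, 19 of 56 were higher and 11 lower in the 16 h experiment, beside the same shares of all genes. In the 6 h experiment 2 were higher and 26 lower, again beside the same shares. With median-of-ratios scaling 36 were higher and 4 lower in the 16 h experiment, where 2391 of all genes were then called higher and 2676 lower. Sec24d, a coat component of ER export vesicles, changed by 0.92 ± 0.04 in the 16 h and -0.91 ± 0.07 in the 6 h experiment. Between experiments, the Setd1aDel effect was more positive at 16 h for 30 of these 56 genes and more negative for 3, where 13.6% of all genes were called higher and 27.8% lower.

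The interferon-induced eIF2 kinase Eif2ak2 (PKR) moved apart from the Atf4-linked genes. LPS raised it in control marrow-derived cells (2.77 ± 0.08) and in wild-type RAW264.7 (2.41 ± 0.06 in the 16 h and 3.43 ± 0.08 in the 6 h experiment). It was lower in Setd1aDel under LPS in the 16 h experiment (-1.24 ± 0.06) and the IFNB1 experiment (-0.55 ± 0.05). Of the 14 genes of that list, 2 were higher and 8 lower in Setd1aDel under LPS at 16 h (4 and 4 with median-of-ratios scaling), which is near the share of all genes called. The list's median was -0.14 and that of all genes -0.11. In the 6 h experiment 2 of the 14 were higher and 1 lower in Setd1aDel under LPS, with changes from -0.79 to 0.19. Of all genes, 9.19% were called higher and 12.3% lower there.

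In control marrow-derived cells LPS raised 10 of 32 Atf4-linked genes and lowered 21 (13 and 14 with median-of-ratios scaling), with Slc7a11 (4.87 ± 0.14) and Jdp2 (3.38 ± 0.10) highest, and lowered 40 of 55 other ER genes while raising 7 (25 higher and 17 lower when scaled), among which Erp29 fell most (-2.41 ± 0.05). The unscaled shares are near those of all genes, of which 20.6% were called higher and 64.7% lower. With scaling 3564 of all genes were called higher and 3556 lower. The medians were -0.53 for the Atf4-linked and -0.43 for the other ER genes beside -0.49 for all genes. Under LPS, labelled Setd1bKO cells had 17 of 32 Atf4-linked genes called higher than control and 4 lower, where 29% of all genes were called higher and 12.4% lower. Gdf15, a stress-induced cytokine, was highest (0.85 ± 0.07) and Jdp2 lowest (-0.90 ± 0.10). With median-of-ratios scaling 13 of the list were higher and 6 lower, beside 1451 of all genes higher and 1825 lower. With IFNB1, 13 of 35 Atf4-linked genes rose in wild type and 2 fell, where 9.5% of all genes were called higher and 23.5% lower. Atf3 (0.77 ± 0.06) and Ddit4 (0.58 ± 0.09) were highest. With median-of-ratios scaling 20 of the list were higher and 1 lower, beside 1601 of all genes higher and 1353 lower.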

How the data were processed

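Poly(A) RNA was sequenced with a stranded TruSeq mRNA protocol, per the labels. The deposited values are TPM per gene made by the authors; Salmon 0.10.2, DESeq2 (no version), R 3.6.0 and the builds GRCm38.p6 and mm10 are named in the submitters' processing notes, without their roles. The IFNB1 table has no unit in its header, and its values were read as TPM because its library sums match those of the other tables. The other 2 tables are filtered lists of genes. The authors' mean normalized count (a signal value per gene), log2 fold changes and p-values in the deposited tables were not used here. Read depth is not given by TPM, so no counting intervals were computed. Values were analysed as log2(TPM + 1) of the deposited TPM with limma 3.58.1 in R 4.3.3: 1 mean per group, a fit per experiment over all its libraries, empirical Bayes with trend, a minimum of 1 TPM in any 3 libraries, two-sided p-values adjusted by Benjamini-Hochberg over all genes tested. The fit was checked on simulated data. The series text calls the 3 libraries per group biological replicates.

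Members, gene lists and comparisons were chosen with earlier results of these data known. Every member could be named with TPM. Log2 changes could be given for the 6 highest and 6 lowest called members of a comparison, for 12 fixed members and for a few context genes, and for up to 4 called genes per direction of each other list. The fits were repeated with median-of-ratios scaling, a replicate block, the compared groups alone, each library left out, no filter, and a pseudocount of 0.1. Promoter windows are RefSeq's (GRCm38.p6). In the marrow-derived cells the growth protocol and the sex label of the mice differ, and the LPS unit differs between labels and protocol (the sample label is used).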

Additional observations from a re-analysis of the deposited data

Results flagged for a closer look

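Each value here is a difference between 2 groups' log2 changes under the same contrast that passed limma's adjusted p under 0.05. Differences relative to other genes are given in the report.

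The LPS response in marrow-derived macrophages was higher in the libraries labelled Setd1bKO than in control for Herpud1 (0.707), Pdia4 (0.565), Dnajb9 (0.495), Creld2 (0.398), Derl2 (0.307) and Hyou1 (0.287). Their response to Dex under LPS was lower than in control for Dnajb9 (-0.756), Herpud1 (-0.654), Ppp1r15a (-0.541), Creld2 (-0.505), Hyou1 (-0.435), Calr (-0.334) and Hsp90b1 (-0.323).

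In the 16 h experiment the LPS response was higher in Setd1aDel than in wild type for Ddit3 (1.337), Trib3 (1.261), Asns (1.054), Dnajb9 (1.02), Herpud1 (0.983), Sesn2 (0.687), Atf4 (0.629), Eif2ak3 (0.554), Hspa5 (0.498), Hsp90b1 (0.387), Atf6 (0.163) and Calr (0.145), and lower for Edem1 (-0.764). The response to Dex under LPS was higher in Setd1aDel for Ppp1r15a (0.329) and lower for Sdf2l1 (-0.323), Hsp90b1 (-0.271), Atf6 (-0.265), Dnajc3 (-0.259), Canx (-0.197), Dnajb11 (-0.153) and Calr (-0.148).

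In the 6 h experiment the LPS response was lower in Setd1aDel than in wild type for Dnajb9 (-0.678), Edem1 (-0.599), Hyou1 (-0.239) and Pdia6 (-0.197). The response to Dex under LPS was higher in Setd1aDel for Pdia4 (0.714), Manf (0.552), Sdf2l1 (0.513), Hsp90b1 (0.509), Dnajc3 (0.47), Syvn1 (0.433), Calr (0.41) and Xbp1 (0.3), and lower for Sec61b (-0.466). The IFNB1 response was higher in Setd1aDel for Ddit3 (0.556), Chac1 (0.45), Trib3 (0.355) and Hspa5 (0.12).

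The Setd1aDel effect under LPS was higher in the 16 h than in the 6 h experiment for Dnajb9 (1.867), Ddit3 (1.497), Herpud1 (1.405), Sdf2l1 (1.333), Trib3 (1.21), Pdia4 (1.183), Hspa5 (0.984), Hsp90b1 (0.902), Eif2ak3 (0.854), Calr (0.834), Asns (0.72), Xbp1 (0.58), Atf6 (0.414) and Atf4 (0.371), and lower for Edem1 (-0.523) and Ppp1r15a (-0.444). The LPS response of wild type was higher in the 16 h than in the 6 h experiment for Trib3 (1.677), Ppp1r15a (1.574), Ddit3 (1.449), Sesn2 (0.929), Asns (0.265) and Atf4 (0.259), and lower for Sdf2l1 (-0.714), Pdia4 (-0.661), Hsp90b1 (-0.641), Manf (-0.588), Hyou1 (-0.582), Pdia6 (-0.547), Calr (-0.462), Eif2ak3 (-0.345) and Xbp1 (-0.242).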

How the results depend on the processing

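With median-of-ratios scaling the count of called members became 3 for the difference in LPS response between labelled Setd1bKO and control, 13 for Setd1aDel over wild type in vehicle (16 h experiment), 8 for the difference in LPS response of Setd1aDel (6 h experiment), 25 for IFNB1 in wild type and 7 for the difference in IFNB1 response. Without the filter that last count became 1. Leaving out single libraries gave 4 to 9 called members for the difference in LPS response of labelled Setd1bKO (4 without control LPS replicate 1), 12 to 17 for Setd1aDel over wild type under LPS in the IFNB1 experiment (12 without Setd1aDel LPS replicate 2) and 1 to 7 for the difference in IFNB1 response; every other total of called members stayed within 1.5 times under the alternatives run. Counts by direction moved further with scaling: members called higher became 11 (reported 5) and lower 18 (25) for LPS in control marrow-derived cells, 9 (21) higher and 7 (1) lower for Dex with LPS there, and 17 (12) higher and 7 (19) lower for LPS in wild type of the 16 h experiment; the report gives further splits. The Dex response of Setd1aDel in the 16 h experiment was lower for 5 members (8) with scaling and with the replicate block, and for labelled Setd1bKO over control under Dex with LPS 2 members (5) were higher with the compared groups alone. Under scaling Hsp90b1 (0.03) and Calr (0.007) changed sign for LPS in wild type of the 16 h experiment, Canx (0.019) for Setd1aDel over wild type under LPS there, and Sel1l (0.06) for LPS in wild type of the 6 h experiment; scaling rests on a typical gene being unchanged and TPM on a constant total, and which holds here was not tested. Replicate numbers did not pair the samples: same-numbered libraries of an experiment had median correlations of -0.016 to 0.01 in their deviations. With the replicate block 26 members were called for Setd1aDel over wild type under LPS in the 16 h experiment and 22 in the 6 h experiment. TPM carry no depth, so the precision of low genes is not known.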
